A study of Mus musculus with 12 samples.

Results

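Macrophage and myeloid transcripts were followed across 3 treatment groups of pancreatic neuroendocrine tumors (PanNETs). The members were the 34 mouse gene symbols of a fixed list, each matched to 1 Ensembl identifier among the 38924 gene identifiers of the count tables. The tumors were islet tumors or insulinomas of C57Bl6 RIP1TAG2 mice, in which the rat insulin promoter drives the SV40 T antigen in beta cells, so that every group carried the same oncogene and the myeloid cells were those of the host. Poly(A) RNA of 12 tumors was sequenced by a stranded protocol. Control mice received saline (tumors 1, 2, 3 and 4), other mice received sunitinib (tumors 5, 6, 8 and 12) and the others rapamycin plus sunitinib, written R+S (tumors 4, 5, 7 and 10). Tumor numbers are those of the labels and pair no tumors across groups. By the labels, treatment lasted 4 days from an age of 15.5 weeks. Sunitinib is an inhibitor of receptor tyrosine kinases, among them the VEGF and PDGF receptors, KIT and the macrophage growth factor receptor CSF1R, and rapamycin inhibits the mTORC1 kinase complex.

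Macrophages arise from circulating monocytes or from cells seeded in tissues before birth. The ligands CSF1 and IL-34 keep them alive through CSF1R, and chemokines of the CCL family draw monocytes from blood through receptors such as CCR2 and CCR1. They are the main leukocytes of the resting islet. In tumors they take up dying cells, process antigen and secrete proteases and growth factors, and they are known for a part in the angiogenic switch of islet tumors. The members were arranged by role as lineage genes, general macrophage markers, chemokine receptors, scavenger and efferocytosis receptors, Fc receptors with their adapters, complement C1q subunits, costimulation, and antimicrobial or effector genes.

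Counts on genes ranged from 31872342 to 44215054 per tumor, and levels are given as CPM, counts scaled to a common library size with TMM factors. The islet origin showed in 14 beta-cell and islet genes, whose sum was 45031 to 94012 CPM in 11 tumors. Sunitinib tumor 6 stood apart, with 13536 CPM of islet genes and a correlation of log2 CPM with the other sunitinib tumors of 0.872 to 0.895, against 0.957 to 0.978 among those 3. It was the lowest of all 12 tumors for 21 of the 32 members tested, so values without it are given beside the results whose call it changed or that it moved most. The labels carry a title prefix that was shared by the 4 control tumors, by sunitinib tumors 5, 6 and 8, and by R+S tumors 5 and 7, and no prefix occurred in more than 1 group. Whether a prefix marks a mouse or a batch is not stated, so prefix and treatment cannot be told apart, and p-values measure the spread between these tumors. Transcripts of other cells differed widely between the groups. Genes of exocrine acinar cells summed to 42.0 to 171 CPM in control tumors, 16504 to 60919 in sunitinib tumors and 4249 to 22485 in R+S tumors. Endothelial genes summed to 597 to 804, 67.7 to 107 and 129 to 167 CPM, respectively, and erythroid genes to 68.7 to 375, 1.66 to 4.81 and 2.96 to 22.2 CPM. The part of these differences in the results below was not tested. A fit with the acinar genes left out removes only those genes and leaves other RNA of exocrine tissue in the counts. In these bulk samples fewer myeloid cells and less RNA of a gene per cell cannot be told apart.

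Macrophage transcripts were abundant in untreated tumors, and their levels spread over a wide range. Per kilobase of exon, the control mean was highest for Lyz2, the macrophage lysozyme (178 CPM per kb), followed by C1qa and C1qb, subunits of the complement initiator C1q that macrophages secrete (132 and 109 CPM per kb). Tyrobp, the DAP12 signaling adapter, had 60.1 CPM per kb, C1qc 53.3, Mpeg1, a pore-forming protein of phagosomes, 37.5 and the lysosomal glycoprotein gene Cd68 28.7. The common macrophage marker Adgre1 (F4/80) had 7.70 CPM per kb. At the low end were the monocyte receptor Ccr2 (0.645 CPM per kb), the integrin gene Itgam (CD11b, 0.377), Arg1 (arginase 1, 0.245) and the hemoglobin scavenger receptor gene Cd163 (0.0761). The calprotectin genes S100a8 and S100a9, which mark neutrophils and inflammatory monocytes, did not pass the filter on low counts. Between 1 and 5 reads of S100a8 and between 3 and 6 reads of S100a9 were counted in every tumor. The defining neutrophil markers Ly6g, Camp and Ngp had 0 counts in all 12 tumors, and Mpo had 1 count in 1 of them. Of the 14 genes of the neutrophil list 4 passed the filter. Among them Csf3r, Lcn2 and Il1r2, whose transcripts are not restricted to neutrophils, had 83 to 312, 6 to 269 and 6 to 131 reads per tumor.

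Promoter sequences are shown for 4 members that passed the test in at least 1 comparison (Mrc1, Fcgr1, Itgam and Cx3cr1) and for Cd68, which passed in none. Each is the 250 bases before the RefSeq start site on build GRCm38.p6, written 5′ to 3′ on the strand of the gene. Capitals mark GAGGAA or its complement TTCCTC, a core that the ETS factor PU.1, the product of the member Spi1 and a master regulator of myeloid genes, is known to bind.
Mrc1, chr2:14229164-14229413, plus strand: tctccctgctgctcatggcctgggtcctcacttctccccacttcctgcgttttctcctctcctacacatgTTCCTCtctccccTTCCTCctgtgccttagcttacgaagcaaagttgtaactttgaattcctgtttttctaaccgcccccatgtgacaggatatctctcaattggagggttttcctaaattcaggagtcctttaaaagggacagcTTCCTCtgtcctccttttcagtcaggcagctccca
Fcgr1, chr3:96293970-96294219, minus strand: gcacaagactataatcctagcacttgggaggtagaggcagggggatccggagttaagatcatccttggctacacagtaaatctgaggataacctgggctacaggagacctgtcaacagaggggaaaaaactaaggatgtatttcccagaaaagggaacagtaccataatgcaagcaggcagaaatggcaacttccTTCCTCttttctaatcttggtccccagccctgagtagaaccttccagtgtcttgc
Itgam, chr7:128062390-128062639, plus strand: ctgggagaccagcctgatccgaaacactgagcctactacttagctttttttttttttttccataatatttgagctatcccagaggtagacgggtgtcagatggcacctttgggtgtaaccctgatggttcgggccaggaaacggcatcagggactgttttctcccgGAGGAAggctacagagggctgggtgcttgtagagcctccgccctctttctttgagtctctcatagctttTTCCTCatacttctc
Cx3cr1, chr9:120068297-120068546, minus strand: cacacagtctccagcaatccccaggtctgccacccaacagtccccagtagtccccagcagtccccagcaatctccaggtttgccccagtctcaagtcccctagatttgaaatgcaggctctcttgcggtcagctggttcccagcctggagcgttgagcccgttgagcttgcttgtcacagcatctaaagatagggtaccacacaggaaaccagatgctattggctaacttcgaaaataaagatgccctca
Cd68, chr11:69666171-69666420, minus strand: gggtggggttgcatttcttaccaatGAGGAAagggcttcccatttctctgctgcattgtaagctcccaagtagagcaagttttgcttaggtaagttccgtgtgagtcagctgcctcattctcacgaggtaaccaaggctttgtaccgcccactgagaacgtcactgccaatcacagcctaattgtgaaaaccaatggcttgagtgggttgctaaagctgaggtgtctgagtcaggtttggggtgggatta
The core occurred 3 times in the Mrc1 window, 2 times in that of Itgam, once in those of Fcgr1 and Cd68 and not in that of Cx3cr1. Of 26 members with a RefSeq entry, 12 (46.2%) held it in at least 1 window, as did 23.3% of the 32851 windows of the same length in the table. It was found in 4 of the 8 members with an entry that passed a test below and in 8 of the other 18. A match describes the letters of the window and not a bound site.

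The first comparison asked what sunitinib alone did to myeloid transcripts. In sunitinib tumors, 7 members were lower than in control tumors and 0 were higher. They were the monocyte and macrophage chemokine receptor genes Ccr2 and Cx3cr1, the mannose receptor gene Mrc1, the F4/80 gene Adgre1, the high-affinity IgG receptor gene Fcgr1, the costimulatory ligand gene Cd86 and the NADPH oxidase subunit gene Cybb, with log2 fold changes of -2.56 to -1.14. The abundant macrophage transcripts Lyz2, Cd68, Tyrobp, Mpeg1 and the 3 C1q genes passed no test, with log2 fold changes of -0.48 to 0.31. The 7 of 32 members called lower stood beside 2.55% called lower among all 16645 genes tested and 1.93% called higher (4.48% in either direction). As many as 10 members lay wholly below the control range, beside 5.76% of all genes, and 0 wholly above it, beside 5.17%. The median log2 fold change of the members was -0.49, that of all genes 0.03, and 24 of the 32 were negative. At an unadjusted p under 0.05, 15 of the 32 members differed by edgeR, beside 3247 of 16645 genes. DESeq2 called 9 members lower and 2 higher (Arg1 and Lgals3) after adjustment, beside 1477 of 16645 genes called in either direction. Without sunitinib tumor 6 the same 7 members stayed called and Lgals3 was called higher, beside 892 of 16822 genes called (5.3%).

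The second comparison set R+S tumors against the same control tumors. Mrc1 was again lower, together with the low-affinity IgG receptor genes Fcgr2b and Fcgr3, and 0 members were higher. The 3 of 32 members called lower stood beside 2.61% of all genes called lower and 1.55% called higher (4.16% in either direction). As many as 12 members lay wholly below the control range, beside 11.9% of all genes, and 0 wholly above it, beside 11.6%. The median log2 fold change was -0.53 for the members and 0.01 for all genes, and 27 of the 32 were negative. Without sunitinib tumor 6, which enters the shared estimate of the spread, 9 members were called lower, beside 1627 of 16822 genes called (9.67%) in place of 693 of 16645. All 3 genes kept their call, and Adgre1, Cd86, Fcer1g, Itgam, Lyz2 and Msr1 were added. With all tumors, 10 of the 32 members differed at an unadjusted p under 0.05 by edgeR, beside 3347 of 16645 genes. DESeq2 called 9 members lower and 0 higher after adjustment, beside 1688 of 16645 genes called in either direction.

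The third comparison asked what changed when rapamycin was added to sunitinib. Arg1 and Itgam were lower in R+S than in sunitinib tumors, and 0 members were higher. The 2 of 32 members called lower stood beside 4.58% of all genes called lower and 2.63% called higher (7.21% in either direction). A total of 3 members lay wholly above the sunitinib range (Ptprc, Cx3cr1 and Ccr2), beside 8.9% of all genes, and 5 wholly below it, beside 9.73%. The members split evenly by sign, 16 against 16, and their median log2 fold change was 0.00, against -0.02 for all genes. Leaving out any one of R+S tumors 4, 5 and 7 left 0 members called in this comparison, and 0 or 1 of all genes. Without sunitinib tumor 6, Arg1 stayed called, Itgam did not, Lgals3 and Lyz2 were called lower and Cx3cr1 higher, beside 1692 of 16822 genes called (10.1%). At an unadjusted p under 0.05, 11 of the 32 members differed by edgeR, beside 5067 of 16645 genes. DESeq2 called 5 members lower and 3 higher after adjustment, beside 3008 of 16645 genes called in either direction.

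**Figure D1:**
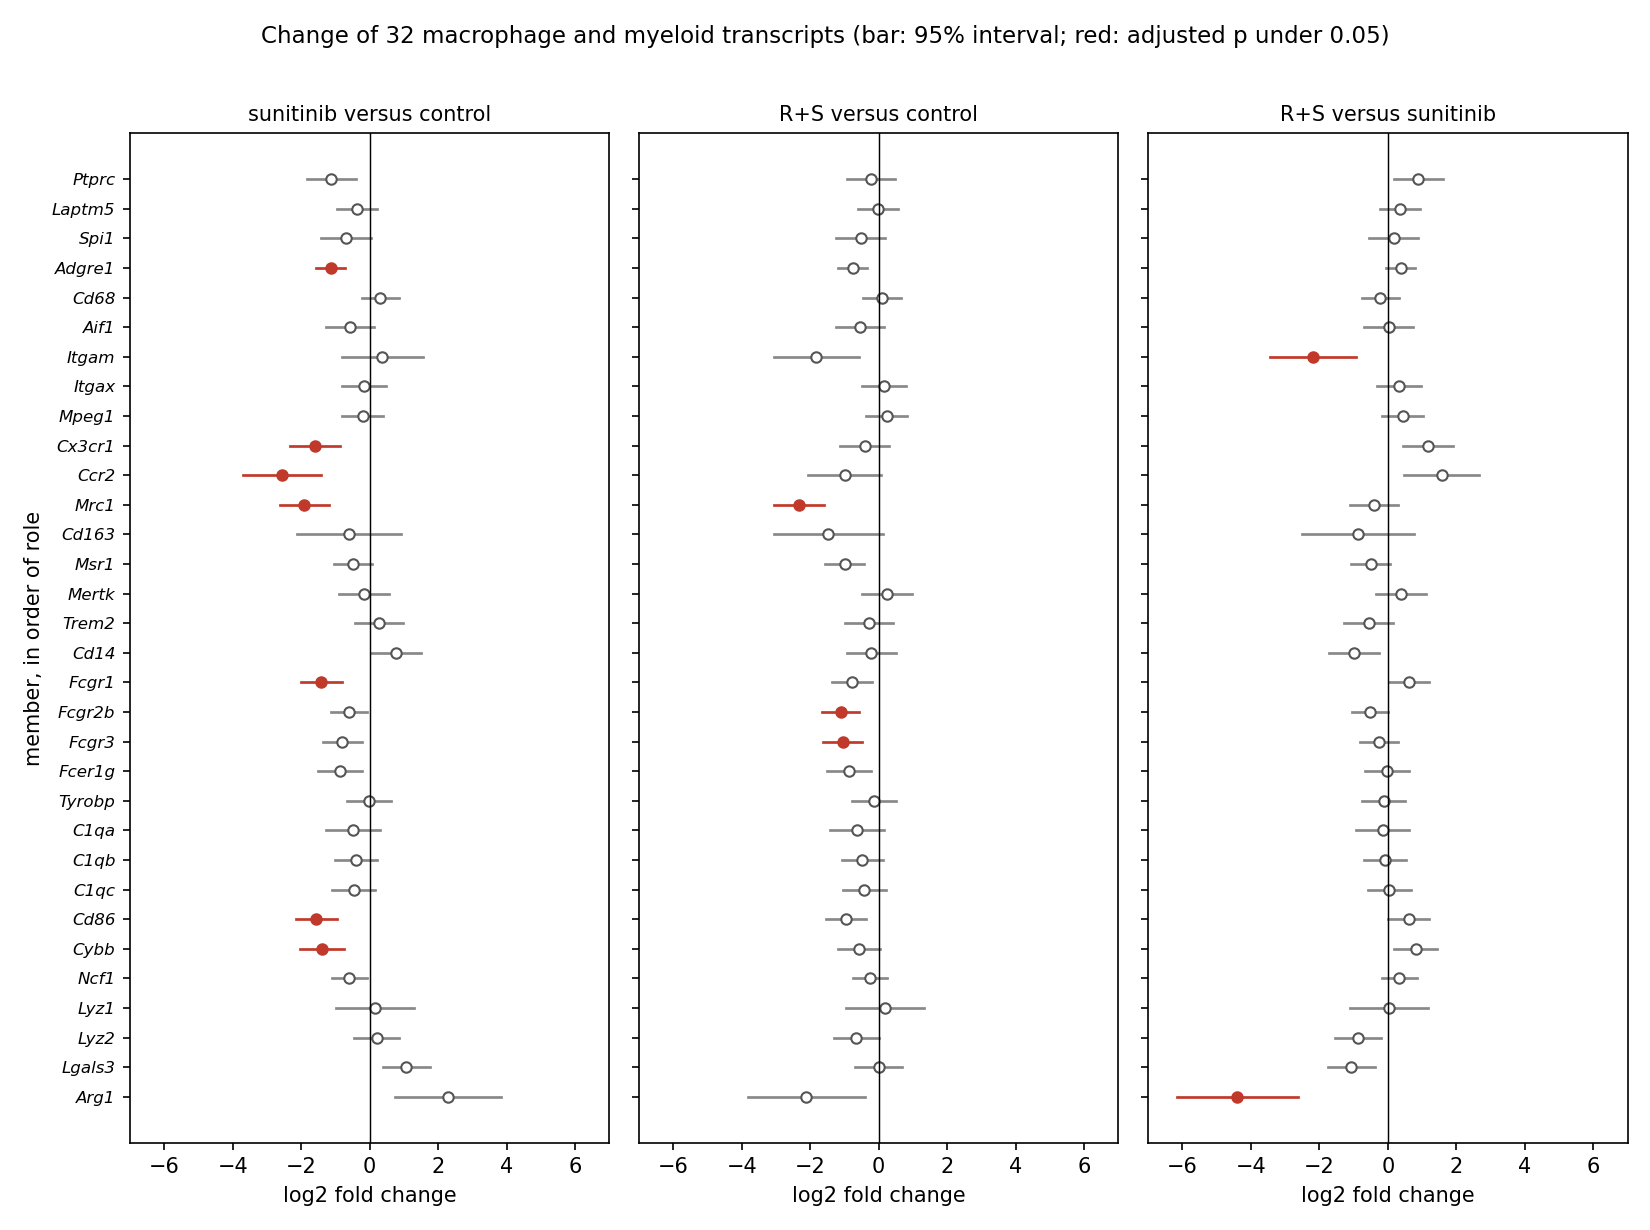
Log2 fold change (x axis) of the 32 members tested (y axis, in order of role) in the 3 comparisons, with bars for the 95% interval and red points for an adjusted p under 0.05. Sunitinib versus control has 7 red points, all left of 0 and led by Ccr2 at -2.56, R+S versus control has 3 and R+S versus sunitinib has 2, with Arg1 at -4.40.

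Of the lineage genes, Ptprc encodes the pan-leukocyte phosphatase CD45, Laptm5 a lysosomal protein of blood cells and Spi1 the factor PU.1. Ptprc had 27.1, 21.8, 32.2 and 34.3 CPM in control tumors 1 to 4, 17.6, 6.60, 20.2 and 8.82 in sunitinib tumors 5, 6, 8 and 12, and 20.9, 21.1, 22.6 and 34.2 in R+S tumors 4, 5, 7 and 10. All sunitinib tumors were below all control tumors and all R+S tumors, yet no difference passed the test (log2 fold change -1.12 ± 0.33 (SE), adjusted p = 0.0911 versus control, and 0.89 ± 0.33, adjusted p = 0.102, for R+S versus sunitinib). Laptm5 and Spi1 passed no test either. The log2 fold change of Laptm5 in R+S versus control was -0.02, with a 95% interval of -0.60 to 0.56.

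Among the general macrophage markers only Adgre1 and Itgam passed a test. Adgre1 (ENSMUSG00000004730, chr17:57358691-57483527, plus strand) encodes F4/80, an adhesion G protein-coupled receptor used to identify mouse macrophages. It had 23.1, 20.1, 30.8 and 25.8 CPM in control tumors, 12.5, 8.21, 14.3 and 10.2 in sunitinib tumors and 13.9, 14.0, 13.6 and 17.4 in R+S tumors. Both treated groups lay wholly below the control group and overlapped each other. Adgre1 was 2.21-fold lower in sunitinib than in control tumors (log2 fold change -1.14 ± 0.20, adjusted p = 0.00509) and passed in each of the 20 alternative settings. For R+S versus control the log2 fold change was -0.76 ± 0.20 with an adjusted p of 0.0507, and without sunitinib tumor 6 the adjusted p was 0.0169.

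Itgam (ENSMUSG00000030786, chr7:128062640-128118491, plus strand) encodes CD11b, the integrin alpha chain of complement receptor 3 on monocytes, macrophages and neutrophils. It had 1.82, 1.27, 3.40 and 1.10 CPM in control tumors, 2.25, 5.11, 0.791 and 1.70 in sunitinib tumors and 0.555, 0.631, 0.680 and 0.272 in R+S tumors. The R+S tumors were the lowest, below every other tumor, and sunitinib tumor 6 was the highest. Itgam was 4.59-fold lower in R+S than in sunitinib tumors (log2 fold change -2.20 ± 0.57, adjusted p = 0.0431), and without sunitinib tumor 6 the log2 fold change was -1.56 (adjusted p = 0.0618). The call held in 7 of the 20 alternatives. Versus control it was -1.82 ± 0.57 (adjusted p = 0.0972), and without sunitinib tumor 6 the adjusted p was 0.0320. The level of Itgam was low, with 11 to 25 reads in the R+S tumors, and 66.3% of its 50-base words also occur in the overlapping gene model Gm49368 of the GENCODE annotation.

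The other macrophage markers, Cd68, Aif1 (the actin-binding protein IBA1), Itgax (CD11c) and Mpeg1, passed no test in any comparison. Cd68 had a mean of 36.0 ± 5.97 CPM (SD, n = 4) in control, 44.8 ± 15.9 in sunitinib and 38.4 ± 6.89 in R+S tumors, and the 95% interval of its log2 fold change was -0.23 to 0.86 for sunitinib and -0.45 to 0.64 for R+S versus control. A lower level of Cd68 than in control tumors by more than 0.45 on the log2 scale thus lay outside both intervals. Mpeg1 had 136, 140, 197 and 177 CPM in control tumors, 175, 69.3, 199 and 121 in sunitinib tumors and 170, 171, 183 and 239 in R+S tumors. Its groups overlapped, and its log2 fold change in R+S versus control, 0.23 ± 0.27, was among the 3 highest of the members.

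**Figure D2:**
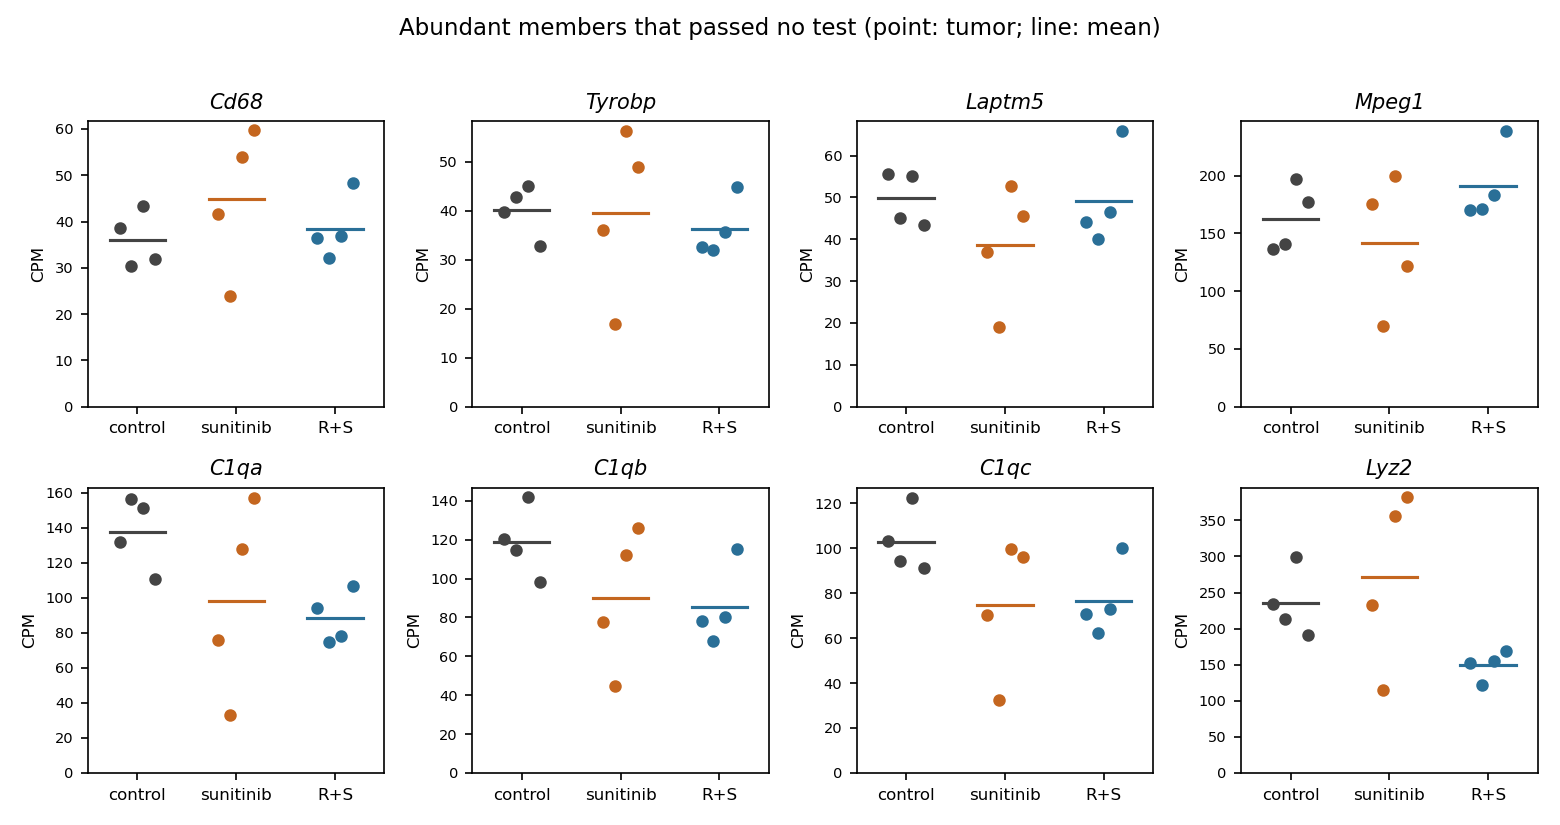
Normalized CPM (y axes, linear, from 0) per tumor of the 8 members that had the highest control mean among those passing no test, by group (x axes), with the group mean as a line. The R+S tumors lie below every control tumor in the C1qa and Lyz2 panels and overlap the control tumors in the other 6, and sunitinib tumor 6 is the lowest of its group in all 8.

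Both chemokine receptor genes were lower with sunitinib. Ccr2 (ENSMUSG00000049103, chr9:124101950-124113557, plus strand) encodes the receptor by which monocytes follow CCL2 and its relatives out of blood. It had 6.55, 3.94, 4.39 and 2.56 CPM in control tumors, 0.689, 0.884, 0.818 and 0.545 in sunitinib tumors and 0.999, 1.39, 1.36 and 5.00 in R+S tumors. Sunitinib tumors were below all others, with 17 to 32 reads each, while R+S tumor 10 reached the control range. Ccr2 was 5.91-fold lower in sunitinib than in control tumors (log2 fold change -2.56 ± 0.52, adjusted p = 0.0148), a call lost in 1 of 20 alternatives, the sum of treated tumors with the same title prefix (adjusted p = 0.0746). For R+S versus control the log2 fold change was -0.99 ± 0.49 (adjusted p = 0.281), and without R+S tumor 10 it was -1.80 (adjusted p = 0.0210). All R+S tumors were above all sunitinib tumors, with a log2 fold change of 1.57 ± 0.51 that did not pass the test (adjusted p = 0.0727).

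Cx3cr1 (ENSMUSG00000052336, chr9:119901616-120069879, minus strand) encodes the fractalkine receptor, which resident macrophages and patrolling monocytes carry. It had 22.9, 18.5, 33.6 and 26.8 CPM in control tumors, 8.98, 3.43, 13.7 and 7.76 in sunitinib tumors and 19.4, 17.0, 18.6 and 21.5 in R+S tumors. The sunitinib tumors again lay below all others, and the R+S tumors overlapped the lower end of the control range. Cx3cr1 was 3.01-fold lower in sunitinib than in control tumors (log2 fold change -1.59 ± 0.34, adjusted p = 0.0191). The call was lost in 4 of the 20 alternatives, those with only the 8 tumors compared and without control tumor 3, control tumor 4 or sunitinib tumor 12 (adjusted p up to 0.0925). R+S exceeded sunitinib by 1.17 ± 0.33 on the log2 scale (adjusted p = 0.0545), and without sunitinib tumor 6 by 0.91 (adjusted p = 0.0378).

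Of the scavenger and efferocytosis receptors, Mrc1 differed most. Mrc1 (ENSMUSG00000026712, chr2:14229392-14332057, plus strand) encodes the mannose receptor CD206, a marker of tissue-resident and alternatively activated macrophages. It had 13.8, 9.87, 18.2 and 14.7 CPM in control tumors, 3.27, 6.19, 3.32 and 2.21 in sunitinib tumors and 2.58, 2.05, 3.07 and 3.54 in R+S tumors. Every treated tumor was below every control tumor, and the treated groups overlapped. Mrc1 was 3.77-fold lower with sunitinib (log2 fold change -1.91 ± 0.33, adjusted p = 0.00502) and 5.02-fold lower with R+S (-2.33 ± 0.33, adjusted p = 0.00241). Both calls held in all 20 alternatives. Between R+S and sunitinib the log2 fold change was -0.42, with a 95% interval of -1.12 to 0.28.

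The remaining receptors of this group were Cd163, Msr1 (scavenger receptor A), Mertk (a kinase that senses dying cells), Trem2 (a lipid-sensing receptor) and Cd14 (a co-receptor for bacterial lipopolysaccharide), and they passed no test. Mertk had 11.8, 9.95, 15.1 and 17.6 CPM in control tumors, 12.2, 4.48, 14.5 and 17.8 in sunitinib tumors and 15.4, 14.6, 16.4 and 17.7 in R+S tumors, and its groups overlapped. Cd14 had 2.48, 1.56, 2.21 and 1.41 CPM in control tumors, 5.77, 2.63, 2.19 and 2.50 in sunitinib tumors and 1.50, 1.69, 1.79 and 1.61 in R+S tumors. Sunitinib tumor 5 was the highest for Cd14, and the log2 fold change of 0.77 ± 0.33 versus control did not pass (adjusted p = 0.224). Msr1 lay wholly below the control range in R+S tumors (2.53 ± 0.614 against 5.04 ± 1.28 CPM, adjusted p = 0.0545). Its adjusted p by edgeR was 0.0272 without sunitinib tumor 6.

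The 3 IgG receptor genes differed from control tumors in one or the other treatment. Fcgr1 (ENSMUSG00000015947, chr3:96282909-96293969, minus strand) encodes the high-affinity receptor CD64. It had 8.81, 5.53, 8.17 and 6.20 CPM in control tumors, 2.42, 1.85, 3.22 and 3.34 in sunitinib tumors and 3.97, 3.31, 3.83 and 5.62 in R+S tumors. Sunitinib tumors were all below the control range, and R+S tumor 10 overlapped it. Fcgr1 was 2.65-fold lower with sunitinib (log2 fold change -1.41 ± 0.27, adjusted p = 0.0105; 0.0588 with treated tumors of the same prefix summed), and the log2 fold change for R+S was -0.78 ± 0.27 (adjusted p = 0.128).

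Fcgr2b (ENSMUSG00000026656, chr1:170958617-170976547, minus strand) encodes the inhibitory IgG receptor, and Fcgr3 (ENSMUSG00000059498, chr1:171051174-171064935, minus strand) an activating one of low affinity. Fcgr2b had 7.49, 6.59, 12.6 and 8.63 CPM in control tumors, 6.81, 5.11, 6.33 and 5.04 in sunitinib tumors and 4.36, 3.06, 4.54 and 4.33 in R+S tumors. The R+S tumors were below both other groups. Fcgr2b was 2.17-fold lower in R+S than in control tumors (log2 fold change -1.12 ± 0.24, adjusted p = 0.0268). Fcgr3 had 15.3, 14.6, 21.7 and 12.5 CPM in control tumors, 7.94, 6.47, 11.8 and 10.7 in sunitinib tumors and 8.43, 5.68, 6.58 and 10.1 in R+S tumors. All treated tumors were below all control tumors, with a log2 fold change of -1.06 ± 0.26 for R+S (adjusted p = 0.0441) and of -0.80 ± 0.26 for sunitinib (adjusted p = 0.120). The R+S calls were less stable than that of Mrc1, passing in 14 (Fcgr2b) and 9 (Fcgr3) of 20 alternatives, with adjusted p up to 0.0978 and 0.152. The genes share sequence, 4.38% of the 50-base words of Fcgr2b and 9.58% of those of Fcgr3, so reads may have been lost or divided between them.

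Their adapters Fcer1g and Tyrobp had unlike values. Fcer1g encodes the shared gamma chain through which activating Fc receptors signal, and it had a mean of 25.0 ± 3.01 CPM in control, 13.9 ± 6.05 in sunitinib and 13.7 ± 3.07 in R+S tumors. Both treated groups lay below the control range without passing the test (adjusted p = 0.141 and 0.126). Without sunitinib tumor 6 the adjusted p of Fcer1g for R+S versus control was 0.0269 by edgeR. Tyrobp had 40.1 ± 5.34, 39.5 ± 17.3 and 36.3 ± 5.90 CPM in the same order, with a 95% interval of -0.66 to 0.62 for its log2 fold change with sunitinib. Whether the 2 adapters differed in response was not tested.

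The 3 C1q subunit genes, which lie side by side on chromosome 4 and encode the chains of 1 hexameric complex, had log2 fold changes close to each other. With sunitinib these were -0.48, -0.40 and -0.46 for C1qa, C1qb and C1qc, and with R+S -0.64, -0.48 and -0.42. None passed the test (adjusted p = 0.344 to 0.483 over both comparisons). Their sum was 300 to 416 CPM in control tumors, 110 in sunitinib tumor 6 and 224 to 379 in the other sunitinib tumors, and 205 to 322 in R+S tumors. Without tumor 6 the 3 log2 fold changes with sunitinib were -0.20, -0.17 and -0.21.

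Cd86 and Cybb were both lower with sunitinib. Cd86 (ENSMUSG00000022901, chr16:36603869-36666081, minus strand) encodes a ligand by which antigen-presenting cells costimulate T cells. It had 6.35, 5.26, 7.43 and 7.33 CPM in control tumors, 2.48, 1.85, 2.66 and 1.93 in sunitinib tumors and 2.77, 2.40, 3.26 and 5.12 in R+S tumors. Every treated tumor was below every control tumor. Cd86 was 2.95-fold lower with sunitinib (log2 fold change -1.56 ± 0.27, adjusted p = 0.00571, past the threshold in all 20 alternatives). With R+S the log2 fold change was -0.96 ± 0.27 (adjusted p = 0.0683), and without R+S tumor 10 it was -1.23 (adjusted p = 0.0242). The adjusted p for R+S was 0.0384 without sunitinib tumor 6.

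Cybb (ENSMUSG00000015340, chrX:9435252-9487771, minus strand) encodes the catalytic subunit of the phagocyte NADPH oxidase, and Ncf1 a cytosolic subunit of the same enzyme. Cybb had 33.8, 31.0, 40.3 and 35.7 CPM in control tumors, 16.6, 6.63, 20.1 and 10.3 in sunitinib tumors and 22.2, 20.0, 21.8 and 30.2 in R+S tumors. All treated tumors were below all control tumors, and sunitinib tumor 8 reached the R+S range. Cybb was 2.63-fold lower with sunitinib (log2 fold change -1.39 ± 0.29, adjusted p = 0.0174), and the log2 fold change with R+S was -0.58 ± 0.29 (adjusted p = 0.281). For Ncf1 the log2 fold change with sunitinib was -0.59 ± 0.23 (adjusted p = 0.189). The Cybb call with sunitinib was lost with only the 8 tumors compared, without control tumor 3 and without sunitinib tumor 12 (adjusted p up to 0.0731).

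**Figure D3:**
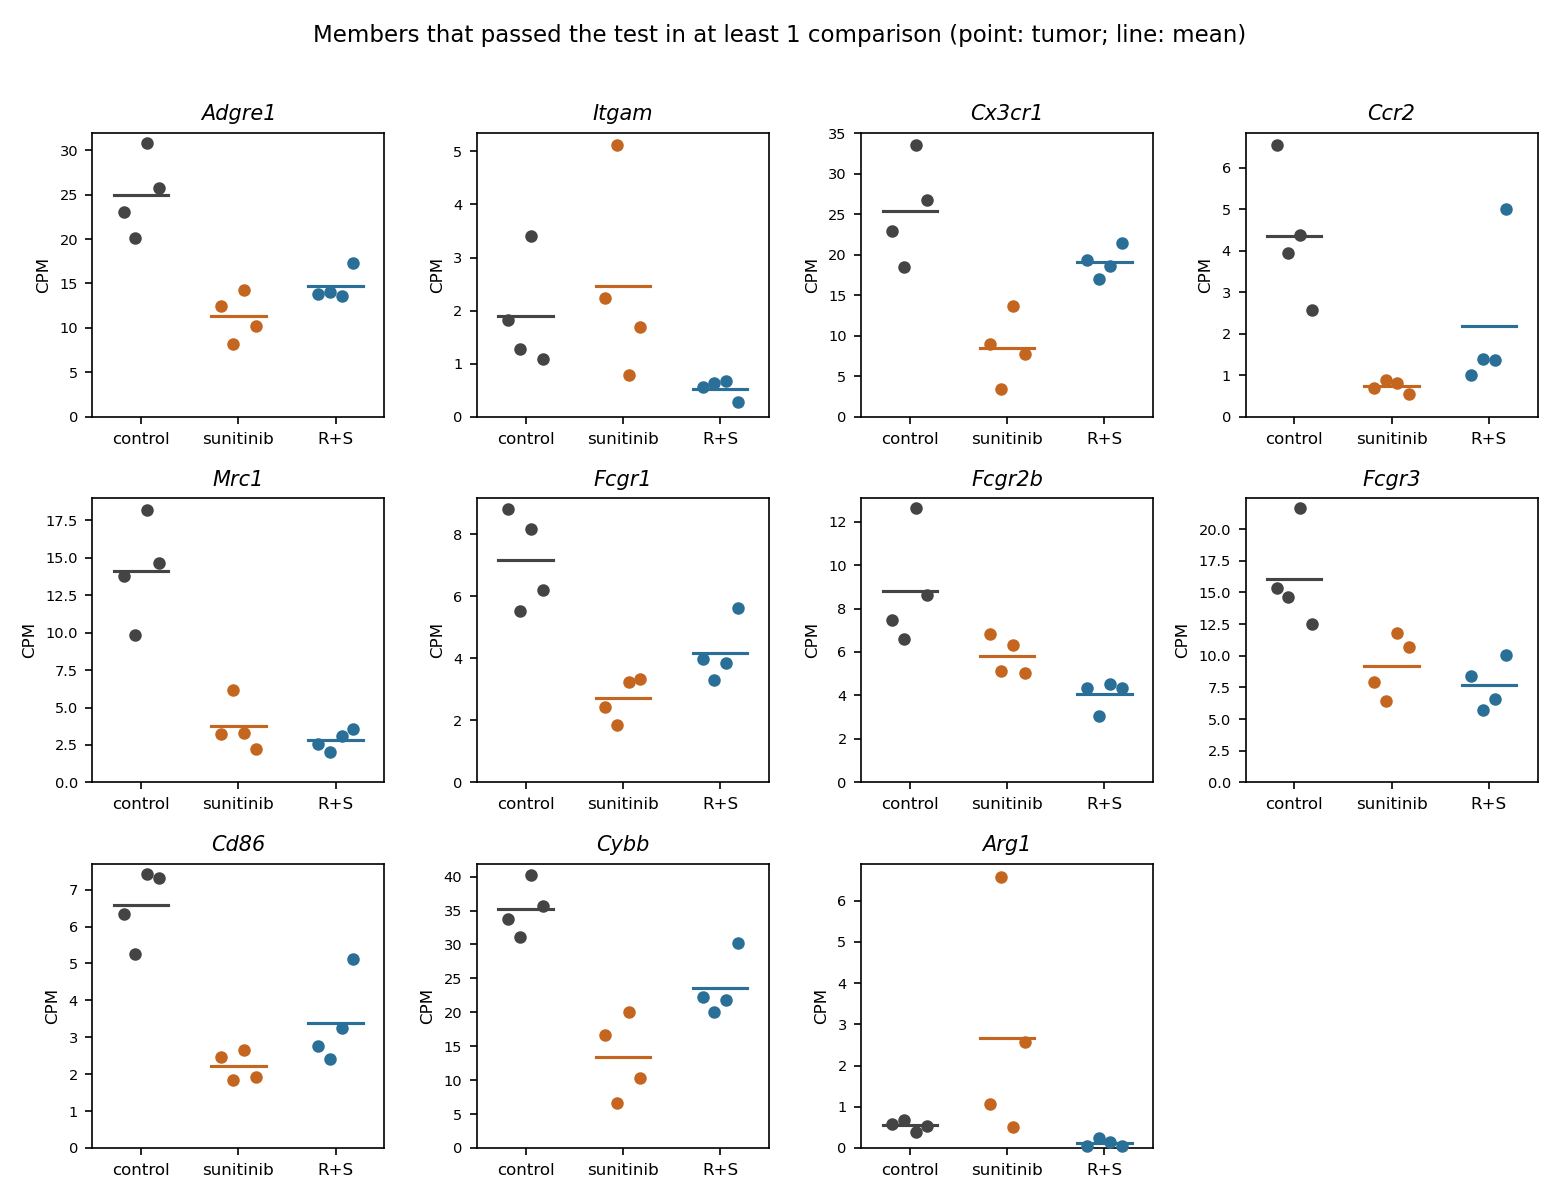
Normalized CPM (y axes, linear, from 0) per tumor of the 11 members that passed the test in at least 1 comparison, by group (x axes), with the group mean as a line. Mrc1, Adgre1, Cd86 and Cybb have every treated tumor below every control tumor, whereas the Ccr2 and Cx3cr1 panels show R+S tumors above all sunitinib tumors.

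The effector genes Arg1 and Lgals3 had their highest levels in sunitinib tumors. Arg1 (ENSMUSG00000019987, chr10:24915221-24927484, minus strand) encodes arginase 1, which alternatively activated and hypoxic macrophages make. It had 0.578, 0.688, 0.380 and 0.536 CPM in control tumors, 1.07, 6.58, 0.501 and 2.57 in sunitinib tumors and 0.0555, 0.253, 0.136 and 0.0495 in R+S tumors. The R+S tumors, with 2 to 10 reads each, were below all others, and the sunitinib tumors spread from the control range to 6.58 in tumor 6. Arg1 was 21.1-fold lower in R+S than in sunitinib tumors (log2 fold change -4.40 ± 0.81, adjusted p = 0.0252). Without sunitinib tumor 6 the log2 fold change was -3.43 (adjusted p = 0.0227). The adjusted p was above the threshold with only the 8 tumors compared and without R+S tumor 4, 5 or 7, at up to 0.0994. Neither treatment differed from control by the test, with log2 fold changes of 2.29 ± 0.71 for sunitinib (adjusted p = 0.104) and -2.11 ± 0.78 for R+S (adjusted p = 0.156). With tumor 6 left out, the log2 fold change with sunitinib was 1.33 (adjusted p = 0.217), and the sunitinib mean went from 2.68 ± 2.74 to 1.38 ± 1.07 CPM.

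Lgals3 encodes galectin-3, a lectin that macrophages and epithelial cells secrete. It had 32.0, 19.0, 24.0 and 18.5 CPM in control tumors, 36.8, 31.1, 38.5 and 89.2 in sunitinib tumors and 20.4, 20.8, 23.3 and 28.7 in R+S tumors. The sunitinib tumors lay above all R+S tumors and overlapped control tumor 1. The log2 fold changes were 1.06 ± 0.31 for sunitinib versus control (adjusted p = 0.0899) and -1.07 ± 0.31 for R+S versus sunitinib (adjusted p = 0.0593), and without sunitinib tumor 6 both passed (1.23, adjusted p = 0.0393, and -1.23, adjusted p = 0.0349).

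The lysozyme genes are a tandem pair, of which Lyz2 is the macrophage form and Lyz1 the form of Paneth cells. Lyz2 had a mean of 235 ± 46.8 CPM in control, 271 ± 123 in sunitinib and 149 ± 20.0 in R+S tumors. Every R+S tumor was below every control tumor (log2 fold change -0.65 ± 0.30, adjusted p = 0.256). Without sunitinib tumor 6 that adjusted p was 0.0486 by edgeR. In R+S versus sunitinib the log2 fold change of Lyz2 was -0.86 (adjusted p = 0.0915). Without tumor 6 it was -1.11 (adjusted p = 0.0218). Lyz1 stayed under 1 CPM, with 0.834, 0.238, 0.710 and 0.169 in control tumors, 0.459, 0.857, 0.422 and 0.449 in sunitinib tumors and 0.527, 0.480, 0.925 and 0.297 in R+S tumors. Since 16.1% of the 50-base words of Lyz1 also occur in Lyz2, the pair was also fitted as a sum, and the sum passed no test (log2 fold changes of 0.21 and -0.65 versus control for sunitinib and R+S).

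Genes outside the list of members that act on or mark the same cells were read from the same fit. Of 40 other myeloid genes tested, 6 were lower with sunitinib and 2 with R+S than in control tumors, beside 2.55% and 2.61% of all genes. The R+S count is close to the share of all genes. The sunitinib calls with the lowest adjusted p were Pld4, a lysosomal nuclease (19.7 ± 2.88 CPM in control and 6.56 ± 2.71 in sunitinib tumors, adjusted p = 0.00874), the purinergic receptor gene P2ry13 (6.39 ± 1.27 and 1.35 ± 1.01, adjusted p = 0.0226) and Cd52 (11.7 ± 2.87 and 4.94 ± 1.35, adjusted p = 0.0237). With R+S, P2ry13 (1.62 ± 0.717 CPM, adjusted p = 0.0426) and the actin regulator gene Coro1a (8.26 ± 0.832 against 14.8 ± 3.98, adjusted p = 0.0414) were lower than in control tumors. In the 20 alternatives Pld4 stayed called in 20 and P2ry13 and Cd52 in 15 each, and with R+S P2ry13 in 11 and Coro1a in 10. The median log2 fold change of these 40 genes was -0.59 with sunitinib and -0.41 with R+S.

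Csf1r, the growth factor receptor gene of macrophages, had 55.4, 48.7, 77.4 and 58.9 CPM in control tumors, 32.9, 17.9, 48.3 and 29.9 in sunitinib tumors and 34.7, 35.3, 40.6 and 55.5 in R+S tumors. All sunitinib tumors were below all control tumors, with a log2 fold change of -0.90 ± 0.27 that did not pass (adjusted p = 0.0954), and R+S tumor 10 overlapped the control range (-0.53 ± 0.27, adjusted p = 0.293). Its ligand gene Csf1 had 43.6, 36.5, 39.6 and 34.5 CPM in control tumors, 28.9, 24.9, 25.7 and 21.9 in sunitinib tumors and 33.2, 43.2, 30.6 and 42.7 in R+S tumors. Sunitinib tumors were below all others. Csf1 was 1.52-fold lower with sunitinib than in control tumors (log2 fold change -0.60 ± 0.14, adjusted p = 0.0360) and 1.48-fold higher in R+S than in sunitinib tumors (0.56 ± 0.14, adjusted p = 0.0412), calls that held in 12 and 8 of 20 alternatives. The first had an adjusted p of 0.0544 without sunitinib tumor 6. R+S and control tumors overlapped, with an interval of -0.36 to 0.27 for the log2 fold change. The second ligand gene, Il34, passed no test, with means of 3.58 ± 0.647, 2.57 ± 2.18 and 2.54 ± 0.697 CPM in control, sunitinib and R+S tumors. Tumor 6 had 5.75 CPM of Il34, and without it the sunitinib mean was 1.50 ± 0.606 CPM, with log2 fold changes of -1.24 for sunitinib versus control (adjusted p = 0.0596) and 0.75 for R+S versus sunitinib (adjusted p = 0.145).

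The chemokine genes Ccl12, Ccl7 and Ccl3 were lower than in control tumors in both treatments, whereas Cx3cl1, Cxcl12 and Ccl2 passed no test. Ccl2 had 26 to 78 reads in control tumors, 10 to 55 in sunitinib tumors and 7 to 21 in R+S tumors. Of 21 recruitment and growth factor genes tested, 8 were lower with sunitinib and 6 with R+S than in control tumors, beside 2.55% and 2.61% of all genes. Ccl12, a ligand of CCR2, had 1.37, 1.11, 1.62 and 0.817 CPM in control tumors, 0.0255, 0.0553, 0.132 and 0.0321 in sunitinib tumors and 0.0832, 0.0758, 0 and 0.0990 in R+S tumors, which is 0 to 5 reads in each treated tumor. It was 18.9-fold lower with sunitinib and 18.1-fold lower with R+S (adjusted p = 0.00142 and 0.00241). Ccl7, another ligand of CCR2, fell from 18 to 93 reads in control tumors to 2 to 7 in treated tumors (log2 fold changes -3.24 ± 0.54 and -3.48 ± 0.55, adjusted p = 0.00418 and 0.00433). Ccl3, a ligand of CCR1, was 3.17-fold and 3.69-fold lower (adjusted p = 0.0117 and 0.00803). Ccl12, Ccl7 and Ccl3 each had every treated tumor below every control tumor. Their calls held in every alternative that tested the gene, except that of Ccl3 with sunitinib (18 of 20).

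The receptor gene Ccr1 was lower with R+S than in control tumors (0.731 ± 0.384 against 0.0332 ± 0.0149 CPM, adjusted p = 0.00188, on 1 or 2 reads per R+S tumor). Ccl8 was lower in R+S tumors than in control tumors (0.286 ± 0.132 against 4.37 ± 3.00 CPM, adjusted p = 0.00588) and than in sunitinib tumors (1.57 ± 1.12 CPM, adjusted p = 0.0397). Without sunitinib tumor 6 the sunitinib mean was 1.03 ± 0.334 CPM and the second result had an adjusted p of 0.0554. The alternatives kept the call of Ccr1 and the first of Ccl8 in 19 of 19 each, and the second of Ccl8 in 7 of 19. The summed levels of endothelial and erythroid genes were lower in both treated groups, and their part in these results was not tested.

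Activation and polarization genes moved in both directions with sunitinib. Of 17 tested, 4 were higher and 3 lower than in control tumors, beside 1.93% and 2.55% of all genes. With R+S 1 was higher and 2 lower, beside 1.55% and 2.61%. Mmp12, the macrophage elastase, had 6.67, 3.60, 4.77 and 4.96 CPM in control tumors, 37.0, 29.2, 18.2 and 50.5 in sunitinib tumors and 14.3, 14.7, 15.6 and 20.6 in R+S tumors. It was 6.73-fold higher with sunitinib and 3.26-fold higher with R+S than in control tumors (adjusted p = 0.000247 and 0.00787), and 2.07-fold lower in R+S than in sunitinib tumors (adjusted p = 0.0493). The first of these results held in 20 of 20 alternatives, the second in 20 of 20 and the third in 6 of 20.

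Gpnmb, a lysosome-linked glycoprotein of lipid-laden macrophages, had 22.2, 6.67, 7.10 and 3.86 CPM in control tumors, 63.5, 24.9, 59.1 and 108 in sunitinib tumors and 12.7, 8.74, 20.5 and 10.5 in R+S tumors. The sunitinib tumors were above all others. It was 6.40-fold higher with sunitinib than in control tumors and 4.88-fold lower in R+S than in sunitinib tumors (adjusted p = 0.0196 and 0.0372). The interleukin-1 receptor antagonist gene Il1rn and osteopontin gene Spp1 were also higher with sunitinib (3.91-fold and 8.57-fold, adjusted p = 0.0117 and 0.0350; without sunitinib tumor 6 that of Spp1 was 0.0528). Il1rn was 3.21-fold lower in R+S than in sunitinib tumors (adjusted p = 0.0313), as was the heme oxygenase gene Hmox1 (37.0 ± 6.15 against 72.3 ± 19.4 CPM, adjusted p = 0.0328). The sunitinib calls of Gpnmb, Il1rn and Spp1 held in 15, 18 and 11 of 20 alternatives, and the R+S versus sunitinib calls of Gpnmb, Il1rn and Hmox1 in 10, 12 and 13. Gpnmb and Spp1 are also made by cells other than macrophages, which bulk counts do not separate.

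Lower than in control tumors were Nos2 and the collagenase gene Mmp13 in both treatments and Retnla with sunitinib alone. Nos2, the inducible nitric oxide synthase of classically activated macrophages, had 0.663, 1.27, 2.05 and 2.68 CPM in control tumors, 0.128, 0.166, 0.106 and 0.0642 in sunitinib tumors and 0.111, 0.126, 0.0816 and 0.149 in R+S tumors. Both treated groups were far below the control range, on 2 to 6 reads per tumor, with log2 fold changes of -3.80 ± 0.47 and -3.79 ± 0.47 (adjusted p = 0.000540 and 0.000954). Retnla, a marker of alternative activation, had 14 to 135 reads in control tumors and 0 to 6 in sunitinib tumors (log2 fold change -4.48 ± 0.91, adjusted p = 0.0152). The R+S tumors had 6 to 19 reads of Retnla, overlapped the control tumors and did not pass the test. Mmp13 was 3.37-fold and 3.19-fold lower with sunitinib and R+S (adjusted p = 0.0208 and 0.0318). Alternatives kept the Nos2 calls in 19 of 19 each, the Retnla call in 17 of 19 and the Mmp13 calls in 15 and 14 of 20.

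**Figure D4:**
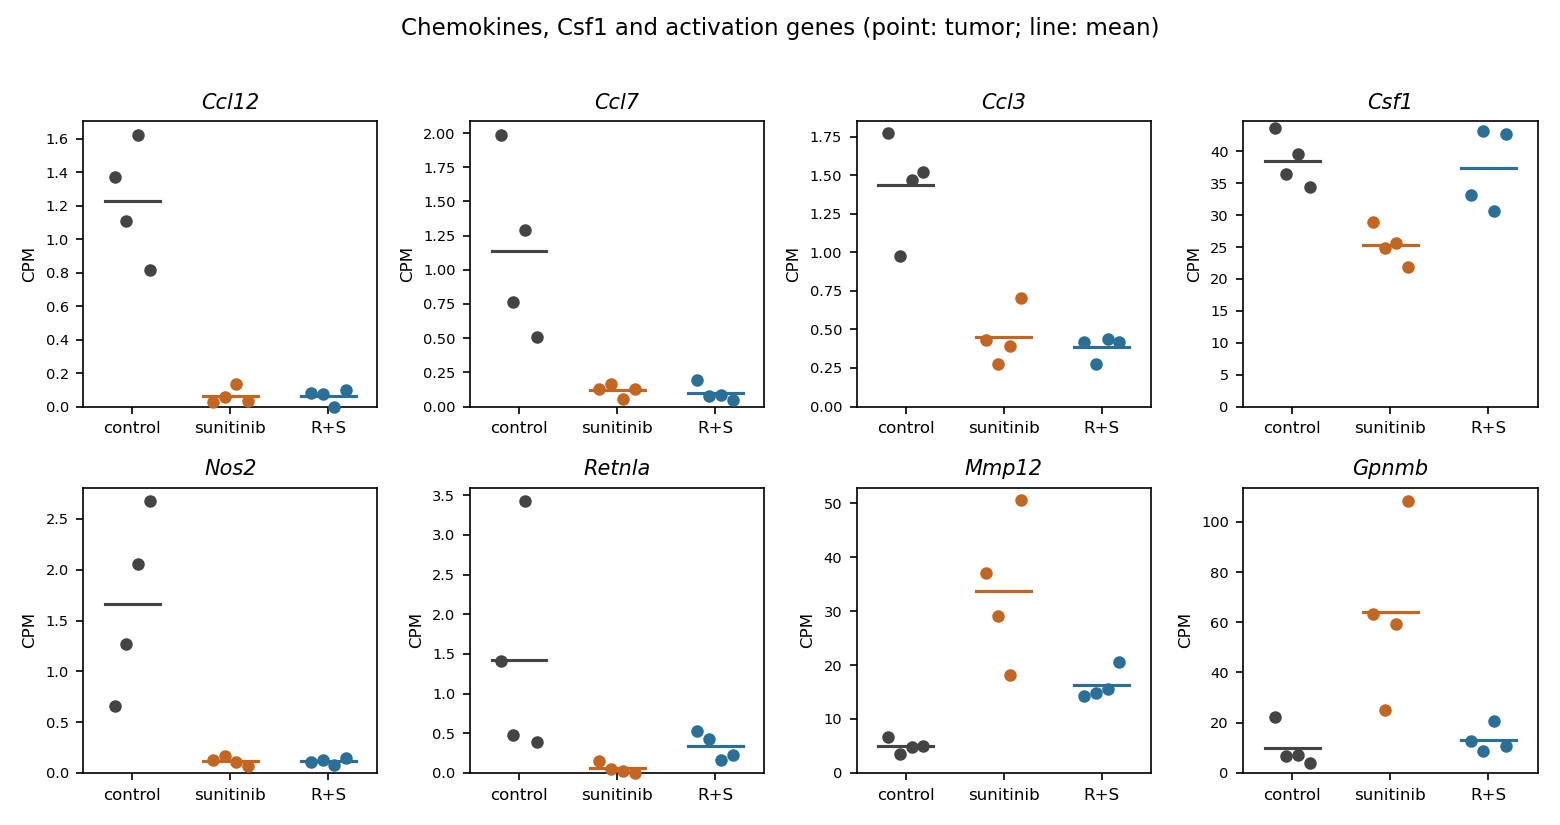
Normalized CPM (y axes, linear, from 0) per tumor of 3 chemokine genes, Csf1 and 4 activation genes, by group (x axes), with the group mean as a line. Ccl12, Ccl7 and Nos2 lie near 0 in both treated groups, and Ccl3 is below every control tumor in both. Csf1 is below the other groups in sunitinib tumors alone. Mmp12 and Gpnmb are highest in sunitinib tumors, up to 50.5 and 108 CPM.

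Because both drug groups were compared with the same 4 control tumors, their changes share those tumors and are given side by side. For Ccr2, Cx3cr1, Fcgr1, Cd86 and Cybb the log2 fold change was -2.56 and -0.99, -1.59 and -0.41, -1.41 and -0.78, -1.56 and -0.96, and -1.39 and -0.58 with sunitinib and R+S, respectively. For Mrc1, Fcgr2b and Fcgr3 it was -1.91 and -2.33, -0.60 and -1.12, and -0.80 and -1.06. The direct comparison of R+S with sunitinib passed the test for none of these 8 genes, with adjusted p of 0.0545 to 0.517, so that a difference between the treatments was not shown for them. DESeq2 gave an adjusted p of 0.0209 for Ccr2, 0.00957 for Cx3cr1 and 0.0480 for Cybb in that comparison. Across R+S tumors, tumor 10 had the highest level for 26 of the 32 members tested, and across control tumors, tumor 3 did for 20.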

How the data were processed

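RNA of 12 RIP1TAG2 tumors, 4 per group, was sequenced by the authors with a stranded poly(A) protocol. The authors deposited whole-number read counts per Ensembl gene, 1 table per tumor, and per the labels and the submitters' processing notes cutadapt 1.2.1, TopHat2 2.0.9 and HTSeq 0.5.4p3 were used with genome GRCm38. The annotation release is not given in the sources used here. Reads that HTSeq could not assign (5 summary lines per table) were left out; reads without a gene were 11.1 to 18.8% of uniquely aligned reads. Reads aligned to more than 1 place were not counted, which lowers genes with near copies.

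Symbols came from the GENCODE annotation of GRCm38, which paired 37607 of 38924 identifiers and all 34 members; Lilrb4a and Flt3l of the other lists had no match. Counts were tested with edgeR 4.0.16 in R 4.3.3 (TMM factors, a minimum count of 10 and total of 15 by group, robust quasi-likelihood F-tests), in 1 fit of 3 groups over 16645 genes, with Benjamini-Hochberg adjustment over all of them and a threshold of 0.05. The test that the authors used for these counts is not given in the sources used here. Fold changes are the log2 estimates of the edgeR fit, and SE and 95% intervals derive from the test statistic. CPM values are counts relative to the TMM-scaled library size, and log2 CPM values used a prior count of 2. An exact permutation test of 4 against 4 tumors cannot go below p = 0.0286 and was not used for calls. Tested on simulated counts for sunitinib versus control, the fit called 37 of 100 genes changed by 1 on the log2 scale and 73 of 100 changed by 2. It also called 7 unchanged genes, with 16507 changed and unchanged genes tested together.

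The members and gene lists were chosen with earlier results of these data known. Values per tumor were given for members that passed a test, the 3 highest and 3 lowest log2 fold changes of each comparison and members removed by the filter; from each other list at most 4 called genes per direction were named by adjusted p, plus Csf1r, Csf1 and Il34. The alternatives were DESeq2 1.42.0, library-size and upper-quartile scaling, no filter, at least 10 counts in every tumor, only the 8 tumors compared, acinar genes left out, tumors of 1 title prefix summed in the treated groups, and each tumor left out in turn. Shared sequence was measured as the share of 50-base words of a gene's exons found in other genes. Some genes that this rule names are not reported here.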

Additional observations from a re-analysis of the deposited data

Results flagged for a closer look

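In 9 of 102 groups of 4 tumors, the highest or lowest tumor lay farther from the other 3 than Dixon's critical ratio of 0.829 allows, where chance alone marks about 1 in 20 groups. R+S tumor 10 was the far tumor for 4 genes, always as the highest. It had 34.2 CPM of Ptprc (the leukocyte phosphatase CD45) against 20.9 to 22.6 in the other R+S tumors, 17.4 CPM of Adgre1 (F4/80) against 13.6 to 14.0, 5.00 CPM of Ccr2 against 0.999 to 1.39 and 3.44 CPM of Msr1 against 2.12 to 2.34. In R+S tumor 4, Cd163 had 0.472 CPM against 0.0272 to 0.0505, which is 17 reads against 1 or 2. R+S tumor 5 was the lowest for Fcgr2b, with 3.06 CPM against 4.33 to 4.54.

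Among sunitinib tumors, Cd14 was highest in tumor 5, with 5.77 CPM against 2.19 to 2.63, and Lgals3 in tumor 12, with 89.2 CPM against 31.1 to 38.5. Lyz1 was highest in tumor 6, with 0.857 CPM against 0.422 to 0.459, in the tumor that was lowest of its group for 24 of the 32 members tested. No control tumor was far from its group by this measure.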

How the results depend on the processing

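Of the 12 calls of a member in a comparison, 0 changed sign in any of the 20 alternatives. Of all 96 pairs of a member and a comparison, 21 changed sign in at least 1, and none of those had an adjusted p under 0.669. Mrc1 versus control in both treatments and Adgre1 and Cd86 with sunitinib passed everywhere, whereas Fcgr3 with R+S passed in 9 and Itgam in R+S versus sunitinib in 7 of 20. The counts depended on the fit. DESeq2 called 1477 genes in either direction in sunitinib versus control, 1688 in R+S versus control and 3008 in R+S versus sunitinib. It called 2 members higher and 9 lower with sunitinib, and 0 higher and 9 lower with R+S. In R+S versus sunitinib it called 3 members higher and 5 lower. With only the 8 tumors compared, 380, 2557 and 3 genes were called in the 3 comparisons, and 13 members were lower with R+S and 0 in R+S versus sunitinib. Library-size or upper-quartile scaling left 5 members lower with R+S. With the acinar genes left out, 7 members were lower with sunitinib, 4 with R+S and 2 in R+S versus sunitinib. Without a filter 1 member was lower and 501 genes were called in R+S versus sunitinib, and with at least 10 counts in every tumor 1 member was lower there and 408 genes were called with sunitinib. With same-prefix tumors summed, 1 member was higher with sunitinib (Arg1) and 2 in R+S versus sunitinib. The cause of these shifts was not tested.

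With each tumor left out in turn, sunitinib versus control gave 0 to 1 members higher, 5 to 8 lower and 440 to 902 genes called. R+S versus control gave 1 to 9 members lower (9 without sunitinib tumor 6) and 292 to 1627 genes. R+S versus sunitinib gave 0 to 1 members higher, 0 to 3 lower and 0 to 2861 genes. Control tumor 3 lowered the count most when left out of the R+S versus control fit (292 genes and 1 member), and sunitinib tumor 5 raised it most in R+S versus sunitinib (2861). Among uncalled values, the log2 fold change of Il34 in R+S versus sunitinib turned to 0.012 without a filter and to 0.27 with same-prefix tumors summed, and ranged from -0.29 to 0.75 with tumors left out. In the same way Csf1 in R+S versus control ranged from -0.12 to 0.045, Lyz1 in R+S versus control from -0.18 to 0.57 and Itgam in sunitinib versus control from -0.26 to 0.81, the lowest without sunitinib tumor 6.

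No paired analysis was possible because the labels pair no tumors across groups. Depth limits the genes with fewer than 20 reads in at least 1 tumor. They are 7 of the 34 members (Arg1, Ccr2, Cd163, Itgam, Lyz1, S100a8 and S100a9) and 20 of the 34 called genes of the other leukocyte lists. Among the latter are Ccr1, Ccl3, Ccl7, Ccl8, Ccl12, Nos2, Retnla, Pf4, Cbr2, Treml4, Clec9a, Flt3 and Mmp8.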

Other observations

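Genes of tissue-resident macrophages were lower in R+S tumors than in control tumors for 3 of 8 tested, beside 2.61% of all genes. F13a1, the coagulation factor XIII A chain, had 6.17 ± 3.11 CPM (SD, n = 4) in control, 3.72 ± 0.193 in sunitinib and 1.31 ± 0.509 in R+S tumors, lower in R+S than in both other groups (adjusted p = 0.00894 and 0.0422 by edgeR). Pf4 (platelet factor 4, also made by megakaryocytes) had 1.86 ± 0.952 CPM in control and 0.300 ± 0.150 in R+S tumors (adjusted p = 0.0218). Cbr2 had 2.02 ± 1.24 and 0.206 ± 0.158 (adjusted p = 0.0352). The R+S tumors had only 5 to 16 reads of Pf4 and 0 to 13 of Cbr2. With sunitinib alone 0 of the 8 passed by edgeR, and 1 had an unadjusted p under 0.05, beside 3247 of all 16645 genes. Of the alternatives that tested them, 20 of 20 and 8 of 20 kept the F13a1 calls, 13 of 19 that of Pf4 and 12 of 19 that of Cbr2.

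Other leukocyte lists held few calls. Their counts stand beside 2.55% of all genes called lower and 1.93% called higher with sunitinib, and 2.61% called lower with R+S. In R+S versus sunitinib, 4.58% of all genes were called lower. Of 9 monocyte genes, Treml4 was lower than in control tumors with sunitinib (1.73 ± 0.373 against 0.463 ± 0.379 CPM, adjusted p = 0.0493) and with R+S (0.408 ± 0.167 CPM, adjusted p = 0.0378). The sunitinib mean of Treml4 without tumor 6 was 0.277 ± 0.0844 CPM (adjusted p = 0.00180). Of 11 dendritic cell genes, Clec9a and Flt3 were lower with sunitinib (adjusted p = 0.0153 and 0.0367, the latter 0.0660 without sunitinib tumor 6), and Clec10a was lower in R+S than in control and sunitinib tumors (adjusted p = 0.0195 and 0.0385). Among 4 neutrophil genes tested, Mmp8 was higher with sunitinib than in control and R+S tumors (adjusted p = 0.0197 and 0.0300), on 14 to 18 reads per sunitinib tumor. Of 7 B-cell genes, Cd79b was lower in R+S than in control tumors (adjusted p = 0.0275). None of 12 T- and NK-cell genes or 3 mast cell genes passed by edgeR in any comparison. At an unadjusted p under 0.05 by edgeR, 1 of the 12 T- and NK-cell genes differed in each comparison. Of the 3 mast cell genes 0 differed with sunitinib and 1 in each of the other comparisons. Of all 16645 genes, 3247 differed at that level in sunitinib versus control, 3347 in R+S versus control and 5067 in R+S versus sunitinib. The alternatives kept the calls of Treml4 in 5 and 11 of 19, Clec9a in 17 of 18, Flt3 in 8 of 19, Clec10a in 15 and 9, Mmp8 in 15 and 11 and Cd79b in 11 of 19.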
